A study of Mus musculus with 6 samples.

Results

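The variable (V) segments of the T cell receptor were followed in mouse spleen cells labelled CD4+CD25+, a fraction rich in regulatory T (Treg) cells. They were taken as every row of the deposited value table whose annotation holds exactly 1 gene symbol starting with Trav (alpha chain) or Trbv (beta chain). This gave 106 of 65528 rows, with 85 Trav segments in 19 families and 21 Trbv segments in 18 families. A row is a transcript cluster, the group of array probes summarised into 1 value, and each symbol had 1 row. The annotation of 12 of these rows writes the same symbol more than once, and they were kept. A further 22 clusters list several symbols with a Trav or Trbv among them and were left out.

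The 6 arrays came from 3 Keap1_KO samples (replicates B, C and D) and 3 WT samples (replicates A, D and F). Keap1_KO is VAVcreKeapfl/fl, in which a Cre recombinase under the Vav promoter, active in blood-forming cells and their descendants, deletes a floxed Keap1 gene, and these samples are labelled Keap1 -/-. WT is labelled Keap1 +/+, with no word on whether it carries the Cre or the floxed allele. All samples are labelled male, C57BL/6 and untreated. The age reads 10-12 months in one label field and 6-10 weeks in another. The series title writes CD4- where the samples write CD4+. The cells were isolated from spleen with magnetic beads, so other cells can remain. The design calls the triplicates independent without tying each array to 1 mouse, and p-values therefore measure the spread between these arrays, which may be partly technical.

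A T cell receptor is built in the thymus, where each developing cell joins 1 V segment to a J segment (alpha chain) or to a D and a J segment (beta chain), and the joined V segment is spliced to a constant region and transcribed with it. The alpha locus of mice holds repeated blocks of V segments, so many families have copies marked d (duplicated) or n (new) beside the plain name, and near-identical copies can share probes. A population of CD4+ T cells uses many segments side by side, whereas innate-like T cells carry nearly fixed alpha chains: in mice, natural killer T (NKT) cells use Trav11 and mucosal-associated invariant T (MAIT) cells use Trav1. Keap1 directs the stress-response transcription factor NRF2 to degradation.

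Values are deposited log2 values, and differences are Keap1_KO minus WT on that scale. The brightness of a cluster depends on its probes, so levels were compared mainly between arrays. Where segments are ranked or compared by level, the probes enter the result. Of the 106 segments, 102 (83 Trav and 19 Trbv) reached the median of their array in 3 or more of the 6 samples and entered the test, in which limma was fitted over all 17005 clusters with 1 symbol that met the same condition. The 4 dim ones were Trav5d-3, Trav5n-3, Trbv10 and Trbv23. RefSeq annotates 6 of the 106 as pseudogenes, among them Trav5d-3, Trav5n-3 and Trbv10.

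Keap1 itself, read as a check of the labels, was at 4.87, 4.89 and 4.70 on Keap1_KO B, C and D, against 5.30, 5.41 and 5.77 on WT A, D and F. Every Keap1_KO array lay below every WT array, by 0.67 on average (SE 0.16, limma adjusted p = 0.680 in the fit without the filter on dim clusters, which Keap1 did not pass). A probe that lies beyond the floxed exons does not check the deletion. Markers of the labelled cells were bright, with Cd3e at 15.04 to 16.19 in Keap1_KO and 14.30 to 15.27 in WT, and Il2ra, the CD25 chain, at 13.60 to 14.19 in Keap1_KO and 13.77 to 14.18 in WT.

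Most V segments had higher means in Keap1_KO, but the arrays of both genotypes overlapped for 88 of the 102 and none passed the test. Of the 102 segments, 87 (85.3%) had a higher mean in Keap1_KO, against 56.3% of all clusters tested. The median difference was 1.09, against 0.06 over all clusters tested. It was 1.03 for the 83 Trav segments and 1.23 for the 19 Trbv segments, with quartiles of 0.40 and 1.35 for Trav and of 0.97 and 1.60 for Trbv. No segment passed at a limma adjusted p under 0.05 (0.0% of all clusters did), and the lowest adjusted p of a segment was 0.477. At an unadjusted limma p under 0.05, 27 segments (26.5%) were higher and 0 were lower in Keap1_KO, whereas 8.35% of all clusters were higher and 1.95% lower (10.3% in either direction). In bulk samples, more cells carrying a segment and more receptor RNA per cell cannot be told apart.

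All Keap1_KO arrays lay above all WT arrays for 14 of the 102 segments (13.7%), against 9.07% of all clusters tested, and all lay below for 0 segments, against 4.96%. The count above was 79 without Keap1_KO B (31.3% of all clusters) and 56 without WT D (23.6%), and 14 or 15 without any other array. The 14 are 12 Trav segments and 2 Trbv segments, Trbv1 and Trbv19. They include both rows of the pairs Trav14d-2 and Trav14n-2, and Trav7d-5 and Trav7n-5, whose values were identical on all 6 arrays.

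V segments followed an order of arrays that cut across the genotypes. Measured from each segment's own mean of 6 arrays, the Trav segments had median deviations of -0.41, 0.92 and 1.15 on Keap1_KO B, C and D, against -0.78, 0.10 and -0.82 on WT A, D and F. For Trbv segments Keap1_KO B, C and D had medians of -0.51, 1.32 and 1.13, against -0.98, 0.04 and -0.92 on WT A, D and F. Keap1_KO C and D were thus high for both chains, WT D stood near the mean, and Keap1_KO B lay below it, above WT A and F. Keap1_KO B was the lowest Keap1_KO array for 94 of the 102 segments and lay below WT D for 82 of them. It was the highest of the 6 arrays for 2 segments, against 8.48% of all clusters tested, and the lowest for 17, against 8.47%. Keap1_KO C, Keap1_KO D and WT D were the 3 highest arrays for 67 segments (65.7%), against 25.1% of all clusters tested, a count chosen after the values were seen.

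**Figure D1:**
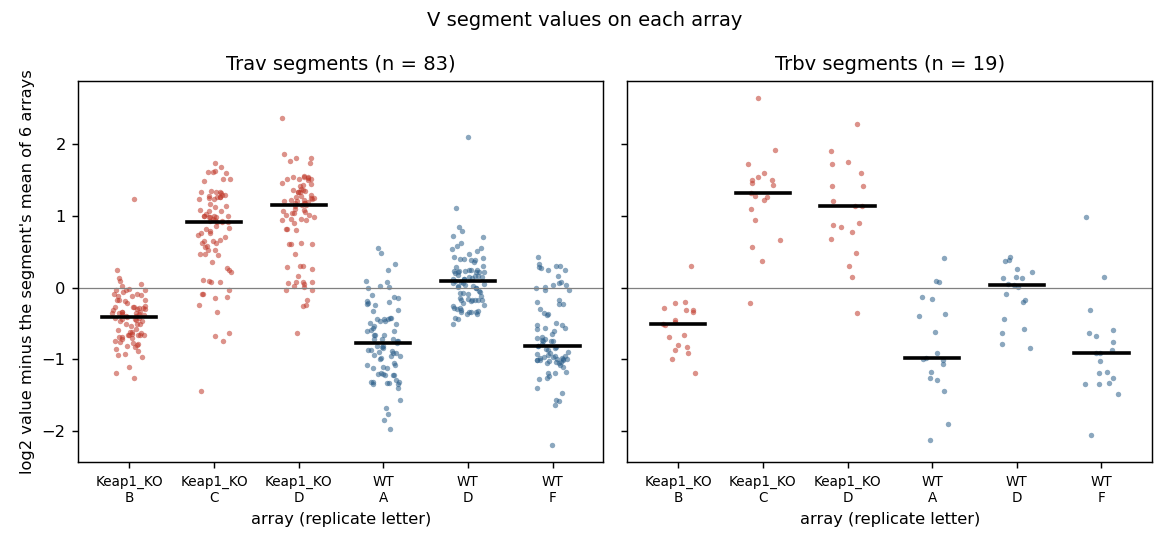
Each point is 1 V segment that passed the filter (83 Trav left, 19 Trbv right), plotted as its log2 value minus its own mean of the 6 arrays, by array, with Keap1_KO arrays in red and WT arrays in blue and a bar at the median. The medians of Keap1_KO C and D are the highest for both chains, from 0.92 to 1.32, and that of Keap1_KO B is below 0 for both.

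The count of segments past the threshold depended on Keap1_KO B. Without Keap1_KO B, 22 segments passed at a limma adjusted p under 0.05, all of them higher in Keap1_KO (3.18% of all clusters tested were called in that direction and 3.34% in either), and the median difference was 1.63 for Trav and 1.85 for Trbv. When limma gave each array a weight for its quality, 50 segments passed, all higher in Keap1_KO (9.5% of all clusters). Leaving out any other array gave 0 segments. At an unadjusted p under 0.05, 74 segments were higher without Keap1_KO B (20.1% of all clusters) and 43 without WT D (10.1%). The count was 7 without Keap1_KO C (2.72%) and 7 without WT A (3.62%), and 8 without Keap1_KO D (2.54%) and 8 without WT F (3.43%).

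Among the beta segments, Trbv12-1 differed most. It read 7.51, 10.81 and 10.08 on Keap1_KO B, C and D, against 6.27, 7.53 and 6.83 on WT A, D and F. Keap1_KO C and D were well above all WT arrays, while Keap1_KO B lay level with WT D. The difference was 2.59 (SE 0.85), 6.02-fold on the deposited scale, with a limma adjusted p of 0.477 and an exact two-sided permutation p of 0.2. The smallest p that 3 arrays against 3 allow is 0.1.

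Its neighbour in name, Trbv12-2, read 10.53, 12.80 and 12.08 in Keap1_KO, against 9.43, 11.02 and 9.40 in WT. Trbv1 read 7.49, 9.82 and 10.60 in Keap1_KO, against 7.14, 7.47 and 7.40 in WT. The 3 WT arrays of Trbv1 were close together (SD 0.17), Keap1_KO B lay just above them and the other Keap1_KO arrays far above, for a difference of 1.96 (SE 0.76). Trbv15 read 10.04, 11.84 and 12.24 in Keap1_KO, against 9.51, 10.33 and 9.19 in WT, so Keap1_KO B again lay below WT D. Trbv19 differed by 1.61 (SE 0.48) with no overlap, from 9.33 to 10.97 in Keap1_KO and from 8.20 to 9.12 in WT.

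A few beta segments did not follow, or followed with a smaller difference. Trbv14 averaged 8.46 ± 0.77 in Keap1_KO and 8.46 ± 0.37 in WT (SD, n = 3 each), a difference of -0.0024 whose sign turns with repeated quantile normalization (0.06) and with centred arrays (0.11). Trbv24 read 7.07, 6.55 and 6.40 in Keap1_KO, against 6.85, 6.80 and 6.91 in WT, with Keap1_KO C and D below every WT array and Keap1_KO B above. Trbv21 had a difference of -0.19 and a wide spread in both groups, from 5.22 to 6.40 in Keap1_KO and from 5.24 to 7.01 in WT, and without WT F it was 0.25. Trbv2 kept the common order of arrays and had the smallest positive difference of the beta segments. It read 13.74, 14.69 and 14.52 in Keap1_KO, against 13.66, 14.47 and 13.12 in WT (difference 0.57, SE 0.41, and -0.55 once each array is shifted by its V segment median).

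Alpha segments of a family mostly had differences of the same sign. All 10 Trav9 segments, all 11 Trav7 segments, all 5 Trav8 segments, all 5 Trav12 segments, all 6 Trav14 segments and all 11 Trav13 segments had higher means in Keap1_KO. The family medians were 1.50 for Trav14, 1.42 for Trav9, 1.35 for Trav7, 1.25 for Trav8 and 1.17 for Trav12, and Trav13 had a smaller one of 0.48. Of 7 Trav4 segments 6 had higher means, from 1.69 for Trav4n-4 to -0.51 for Trav4d-2, which RefSeq annotates as a pseudogene. The Trav3 family was split, with 3 of 5 higher, from 1.18 for Trav3d-3 to -0.24 and -0.28 for Trav3d-2 and Trav3n-2. RefSeq annotates Trav3d-2 as a pseudogene too. In the Trav6 family 5 of 7 segments had higher means, with differences from -0.045 to 1.48. Of all 83 Trav segments 71 had higher means, and copies can share probes, so a shared sign within a family is common. None of these differences passed the test.

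**Figure D2:**
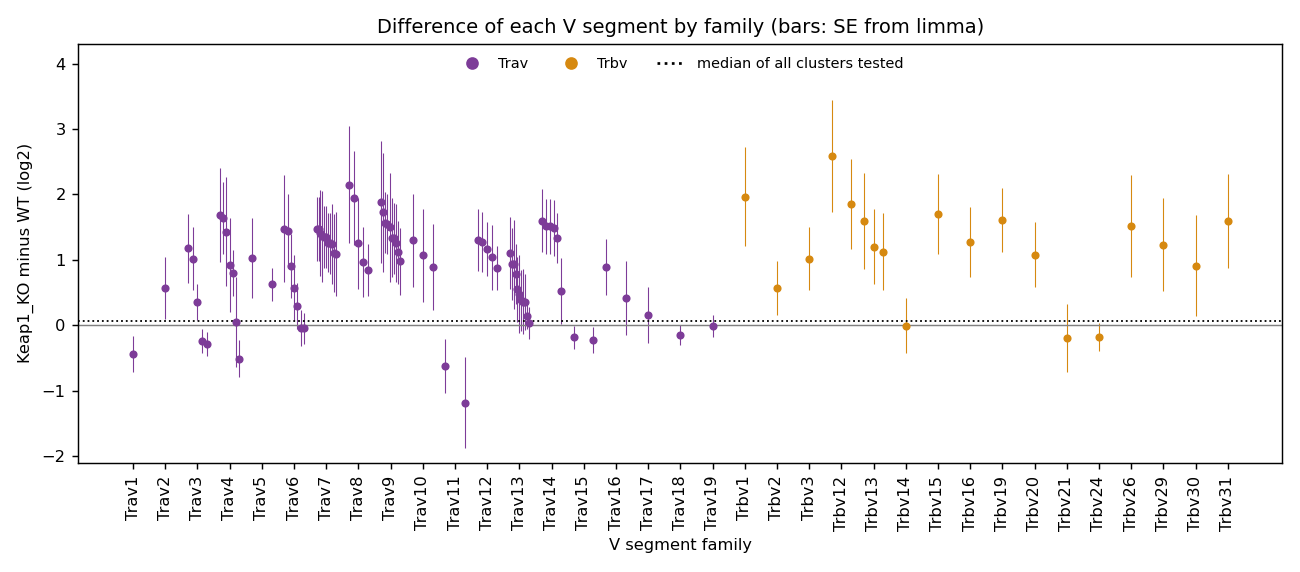
Points are the 102 V segments that passed the filter, grouped by family, with the difference Keap1_KO minus WT (log2) on the vertical axis and limma standard errors as bars. Trav7, Trav9 and Trav14 lie above 0.5 throughout, Trav1, Trav11 and Trav15 lie below 0, and Trbv12-1 is the highest point at 2.59.

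The alpha segment with the largest difference was Trav8d-2, at 6.37, 8.71 and 9.47 on Keap1_KO B, C and D, against 5.34, 7.28 and 5.47 on WT A, D and F. WT D lay above Keap1_KO B, as for most segments. The difference was 2.15 (SE 0.90, limma adjusted p = 0.477), and its copies Trav8n-2 and Trav8-2 differed by 1.95 (SE 0.71) and 0.84 (SE 0.40).

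Trav9-1 read 10.98, 13.33 and 13.45 in Keap1_KO, against 9.67, 12.36 and 10.08 in WT, and its copy Trav9d-1 read 10.41, 12.52 and 12.76 in Keap1_KO, against 9.19, 11.87 and 9.44 in WT. On both, WT D stood more than 2 log2 units above the other WT arrays (SD within WT 1.45 and 1.48). Trav4n-4 read 10.67, 13.15 and 13.30 in Keap1_KO, against 10.32, 11.21 and 10.51 in WT, and Trav4-3 read 8.49, 10.23 and 10.46 in Keap1_KO, against 7.71, 8.62 and 7.94 in WT. On these the WT arrays were closer together (SD 0.47 for each) and Keap1_KO B fell within the WT range.

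In the Trav14 family, 4 of 6 segments had no overlap between the genotypes (9.07% of all clusters lay above in this way), and 2 of the 4 are rows with identical values. Trav14d-2, whose values are those of Trav14n-2, read 11.05, 12.34 and 12.12 in Keap1_KO, against 10.00, 10.91 and 10.07 in WT. Every Keap1_KO array was above every WT array, with a difference of 1.51 (SE 0.42). Trav12d-2 also had no overlap, at 13.53, 14.80 and 15.08 in Keap1_KO, against 13.29, 13.44 and 13.17 in WT, where the 3 WT arrays were alike (SD 0.14).

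Trav11 segments stood apart, with lower means in Keap1_KO. Trav11d, a copy of the NKT cell segment, read 11.30, 11.74 and 12.43 on Keap1_KO B, C and D, against 11.75, 14.51 and 12.75 on WT A, D and F. WT D was far above all other arrays, and the groups overlapped because WT A lay within the Keap1_KO range. The difference was -1.18 (SE 0.70, limma adjusted p = 0.507), and it was -0.43 without WT D and -1.80 without WT A. Trav11n read 10.83, 10.52 and 11.21 in Keap1_KO, against 10.70, 12.27 and 11.46 in WT (difference -0.62, SE 0.42, and -0.22 without WT D or -1.01 without WT A). Weighting the arrays brought the differences to -0.32 for Trav11d and -0.18 for Trav11n.

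Of 4 markers of innate-like T cells, Zbtb16, which encodes the transcription factor PLZF of NKT cells, was at 5.82, 5.19 and 5.13 in Keap1_KO, against 6.17, 7.01 and 5.83 in WT. It was dim, reaching the array median on 4 of the 6 arrays, and highest on WT D. All Keap1_KO arrays lay below all WT arrays, as for 4.96% of all clusters (limma adjusted p = 0.477). Keap1_KO B was nearly level with WT F. The other 3 markers had higher means in Keap1_KO and overlapped. Klrb1b had the largest difference of the 4 markers, 2.14 (SE 0.90), at 11.73, 12.52 and 14.02 in Keap1_KO, against 10.02, 12.40 and 9.44 in WT. Klrb1c, the NK1.1 antigen, read 8.96, 7.88 and 10.58 in Keap1_KO, against 8.43, 10.71 and 7.86 in WT. The part of these cells in the Trav11 values was not tested.

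Trav1, the MAIT cell segment, read 9.06, 8.92 and 8.37 in Keap1_KO, against 8.81, 9.55 and 9.30 in WT, with overlap and a difference of -0.44 (SE 0.28). Among the remaining alpha segments with lower means in Keap1_KO, Trav4d-2 read 8.28, 7.29 and 7.77 in Keap1_KO, against 8.37, 8.05 and 8.46 in WT, and the Trav3d-2 and Trav3n-2 pair moved little on any array (SD over 6 arrays 0.21 and 0.22).

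**Figure D3:**
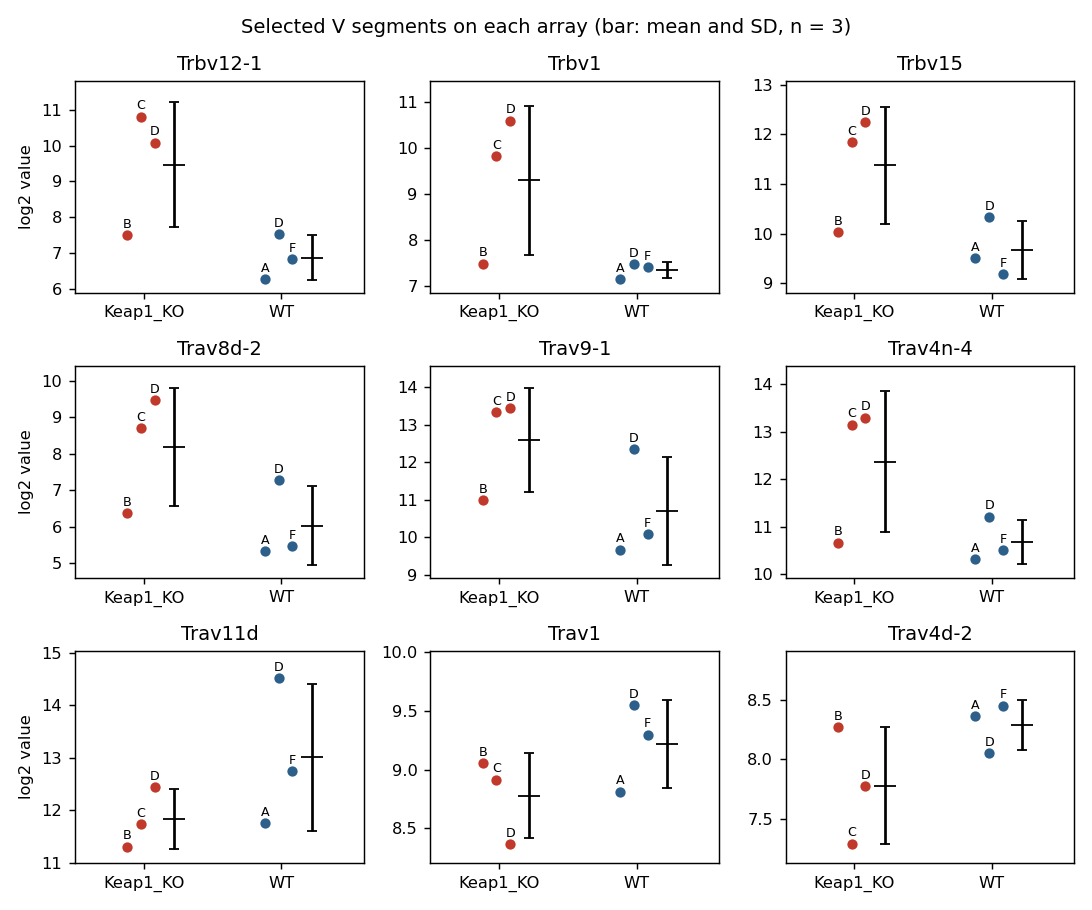
Log2 values of 9 V segments on each array, with Keap1_KO (red) left of WT (blue) in each panel, replicate letters above the points and black bars for mean and SD (n = 3). In the upper 6 panels Keap1_KO C and D lie above all WT arrays while Keap1_KO B lies near them, and Trav11d is highest on WT D at 14.51.

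The dimmest segments had smaller differences, and brightness also depends on the probes. Ranked by mean over all 6 arrays, the dimmest 34 of the 102 segments had a median difference of 0.57, with 24 higher in Keap1_KO, against 1.28 for the middle 34 (31 higher) and 1.25 for the brightest 34 (32 higher). The median SD over 6 arrays was 0.70 in the dimmest 34, against 1.02 and 0.99 in the others. The largest difference of all, that of Trbv12-1, nevertheless came from the dimmest 34.

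Most copies of 1 alpha segment had similar differences, with exceptions. Over the 51 pairs of Trav rows that share a family and number but differ in the letter, the differences between genotypes differed by a median of 0.22 and by at most 1.31, for Trav8d-2 (2.15) with Trav8-2 (0.84). Trav14n-1 (1.60) and Trav14-1 (0.52) were 1.08 apart. Levels of copies were up to 3.45 apart on an array (Trav13d-2 with Trav13n-2), which the probes also set. The median was 0.33 over the 203 other pairs within a family and 0.64 over the 3316 pairs from 2 families. The pairs share segments and are given without a test. For 3 pairs (Trav14d-2 with Trav14n-2, Trav7d-5 with Trav7n-5 and Trav5d-3 with Trav5n-3) the values were identical on all arrays, and copies of this kind are not separate measurements. Plain, d and n copies had median differences of 0.87 (30 segments), 1.11 (28) and 1.10 (25).

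The chains had different leading arrays. The median SD within Keap1_KO was 0.86 for Trav and 1.04 for Trbv segments, and within WT it was 0.52 for Trav and 0.64 for Trbv, against 0.30 within Keap1_KO and 0.28 within WT over all clusters tested. Keap1_KO D was the highest array for 53 of 83 Trav segments and for 4 of 19 Trbv segments, whereas Keap1_KO C was the highest for 16 Trav and 13 Trbv segments. Over all clusters tested, Keap1_KO D was highest for 26.1% and Keap1_KO C for 20.6%.

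To compare which segments were used, each value was set relative to the median of its chain's segments on the same array, which removes the shift of the whole chain. Relative differences then ranged from -2.23 to 1.11 for Trav and from -1.49 to 1.30 for Trbv, and 50 of 83 Trav and 12 of 19 Trbv segments lay within 0.5 of 0. Trav11d was lowest, at 2.25, 1.39 and 1.97 above the Trav median on Keap1_KO B, C and D, against 3.16, 4.95 and 4.17 above it on WT A, D and F. The groups did not overlap on this scale (exact two-sided permutation p = 0.1), and the relative difference was -1.80 without WT D. Trav11n behaved likewise, at 1.77, 0.17 and 0.75 in Keap1_KO, against 2.11, 2.72 and 2.88 in WT. With the whole table shifted by each array's V segment median, a scale added after the data were seen, limma gave Trav11d a difference of -2.30 with an adjusted p of 0.161, and 0 of the 102 segments passed (11 had an unadjusted p under 0.05, 10 of them lower in Keap1_KO, against 29.6% of all clusters in either direction). Segments that barely moved on any array become lower on this scale by construction.

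Trbv12-1 was the highest of the beta segments in relative terms, at -0.89, 0.49 and -0.51 on Keap1_KO B, C and D, against -2.50, -1.40 and -0.90 on WT A, D and F. The groups did not overlap, with Keap1_KO B just above WT F. Trbv14 was lower relative to its chain, at -0.81, -1.29 and -1.84 in Keap1_KO, against 0.10, -0.56 and 0.43 in WT. Before this step Trbv14 had differed by -0.0024 only, so its relative difference of -1.30 comes from the shift of its chain. Trbv21 and Trbv24 were lower still on this scale (-1.49 and -1.47), with overlap. The relative differences of Trbv12-1 and Trbv14 gave the smallest permutation p that the arrays allow (exact two-sided, 0.1). Without overlap in relative terms were 8 Trav segments higher and 10 lower in Keap1_KO, and 2 Trbv segments higher and 1 lower. Set against the same Trav median, 1.06% of all clusters tested were higher and 9.79% lower without overlap, and against the Trbv median 0.476% were higher and 3.51% lower. Segments are centred on their own chain by construction and other clusters are not.

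Similarity of segment usage between arrays was described by correlating, across the 102 segments, the deviations of these relative values from each segment's mean. Segments that barely moved on any array carry the reverse of their chain's shift on this scale. The correlations therefore partly restate that shift and do not measure usage alone. Because deviations sum to 0 over the 6 arrays, the mean of the 15 correlations was -0.19. Keap1_KO C and D were the most alike (r = 0.68). Keap1_KO B was unlike both, with r of -0.44 with C and -0.43 with D, and nearer to WT F (0.23) and WT A (0.18). Among WT arrays, A and F were most alike (0.37), while WT D had r of -0.17 with A and 0.03 with F. Keap1_KO D and WT F were the least alike (-0.78).

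The mean r was -0.06 over Keap1_KO pairs, 0.08 over WT pairs and -0.32 over pairs of different genotype. Pairs of the same genotype thus averaged 0.33 more, a difference that was not tested. The median absolute difference of relative values ran from 0.32 between Keap1_KO C and D to 0.70 between Keap1_KO D and WT A. The levels themselves correlated between 0.83 and 0.97 across segments, which share probes on every array.

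**Figure D4:**
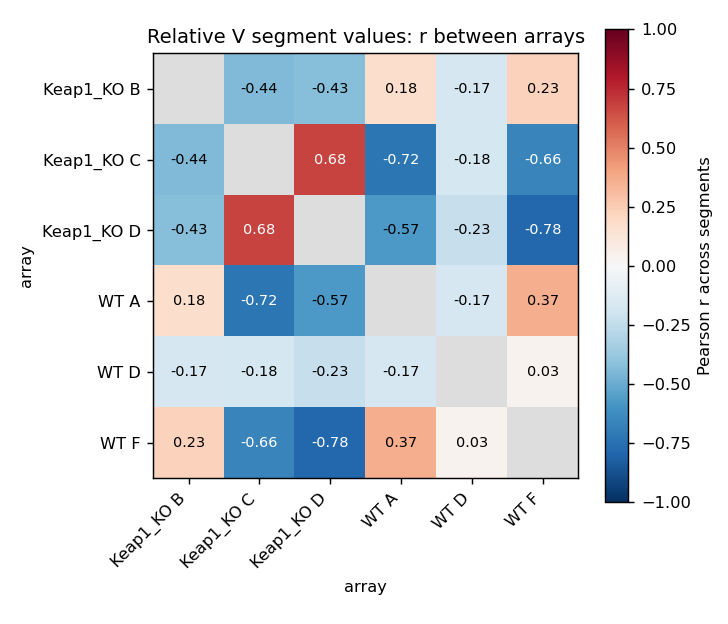
Pearson r between arrays across 102 V segments, from values relative to the chain's median on each array and then to the segment's mean of 6 arrays, on a colour scale from -1 to 1. Keap1_KO C and D form the strongest pair (0.68), and Keap1_KO B correlates negatively with both (-0.44 and -0.43).

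Receptor genes outside the V segments were read from the same fit, and none passed it. The 4 chains that carry the receptor's signal, CD3 delta, epsilon, gamma and zeta, all had higher means in Keap1_KO with overlap. Cd3d read 16.43, 17.88 and 17.91 in Keap1_KO, against 16.27, 17.19 and 15.96 in WT, highest on Keap1_KO C and D like the V segments, and differed by 0.94 (SE 0.50). For the 4 genes Keap1_KO B, C and D had median deviations of -0.25, 0.51 and 0.66, against -0.42, 0.06 and -0.42 on WT A, D and F. Cd247, the zeta chain, differed by 0.17 only. No cluster with 1 symbol was named Trac, Trbc1, Trbc2, Trbd or Trbj, nor Traj18 or Traj33, and these were not analysed here.

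Joining segments of the alpha chain mostly had lower means in Keap1_KO. Of 17 Traj segments tested, 6 had a higher mean in Keap1_KO (56.3% of all clusters did), and the median difference was -0.68, from -1.57 to 0.79. WT F was the highest array for 11 of the 17 (18.9% of all clusters). Keap1_KO B, C and D had median deviations of 0.20, -0.87 and -0.44 for these segments, against -0.23, -0.23 and 1.32 on WT A, D and F. Traj25 read 12.91, 10.91 and 11.37 in Keap1_KO, against 12.09, 12.09 and 14.55 in WT, and Traj38 read 13.95, 12.55 and 12.91 in Keap1_KO, against 13.36, 12.35 and 15.41 in WT. Both were named after their values were seen. All Keap1_KO arrays lay below all WT arrays for 2, Traj55 and Traj14 (differences -1.44 and -1.57), as for 4.96% of all clusters. WT F, on which alpha V segments were lowest by their median, was thus the array on which alpha J segments were highest. Keap1_KO C and D, highest for Trav (0.92 and 1.15), were lowest for Traj. Keap1_KO B, at -0.41 for Trav, was the next highest after WT F for Traj. WT A was an exception, with nearly the same Trav median as WT F (-0.78, against -0.82) and a Traj median of -0.23.

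**Figure D5:**
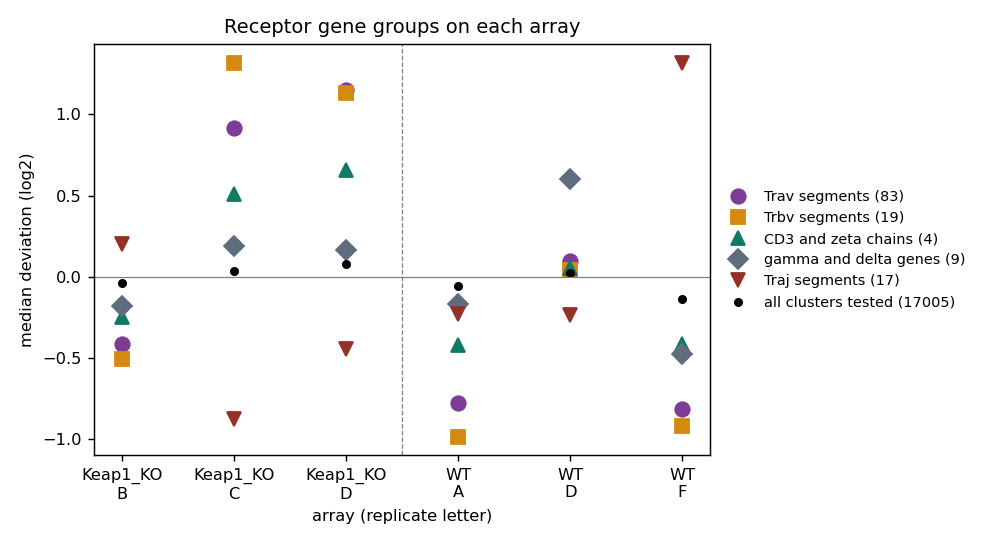
Median deviation of each gene group (number of clusters in brackets) from the clusters' own means of 6 arrays, in log2 units, with Keap1_KO arrays left of the dashed line and WT arrays right of it. Trav, Trbv and CD3 genes are highest on Keap1_KO C and D and lowest on WT A and F, whereas Traj segments are highest on WT F (1.32) and lowest on Keap1_KO C (-0.87).

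Genes of the gamma delta receptor, which the alpha beta lineage does not use at its surface, showed no common shift. Of 12 clusters, 9 were tested, 5 with higher means in Keap1_KO (56.3% of all clusters did), and the median difference was 0.06. Tcrg-C3 read 13.85, 14.18 and 13.80 in Keap1_KO, against 13.25, 14.58 and 12.15 in WT. Trgv5 was the one without overlap, at 6.77, 7.03 and 6.42 in Keap1_KO, against 6.26, 5.93 and 6.15 in WT (difference 0.63, limma adjusted p = 0.477). Over all clusters tested, 9.07% lay above in this way, so 1 of 9 is near that share.

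Of the recombination genes, Dntt was higher on all Keap1_KO arrays without passing the test. It encodes terminal deoxynucleotidyl transferase, the enzyme that adds untemplated bases where V, D and J segments are joined in thymocytes. It read 9.54, 9.37 and 9.57 on Keap1_KO B, C and D, against 8.07, 8.38 and 6.73 on WT A, D and F. All Keap1_KO arrays were alike and above all WT arrays, Keap1_KO B included, with a difference of 1.77 (SE 0.43) and a limma adjusted p of 0.477. Such a lack of overlap was found for 9.07% of all clusters tested. Rag2, a subunit of the recombinase, was dim, at 6.43, 5.98 and 5.12 in Keap1_KO, against 5.32, 5.23 and 5.01 in WT, and Ptcra, the surrogate alpha chain of thymocytes, read 6.30, 6.00 and 5.72 in Keap1_KO, against 6.28, 6.03 and 6.47 in WT. Rag1 shares its cluster with other symbols and was not analysed here.

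The mean levels of CD4, Treg and CD8 T cell markers were highest on Keap1_KO C and D, then on WT D, like the V segments. Those of neutrophil and plasma cell markers were highest on the same arrays, while the other lists varied. The mean level of 9 CD4 T cell markers, all 9 with higher means in Keap1_KO, stood at 13.80, 14.81 and 14.69 on Keap1_KO B, C and D, against 13.51, 13.93 and 13.44 on WT A, D and F. Of 5 Treg markers, 3 had higher means in Keap1_KO, and their mean level was highest on Keap1_KO C and D, at 12.97 to 13.85 in Keap1_KO and 12.51 to 12.99 in WT. Tnfrsf18 and Tnfrsf4 set this order, with differences of 2.35 and 2.01. Ctla4, Ikzf2 and Il2ra differed by 0.08, -0.11 and -0.05 only. Foxp3 was also listed but was not among the markers read. Both CD8 T cell markers had higher means, and their mean level, also highest on Keap1_KO C and D, was 6.67 to 8.38 in Keap1_KO and 6.34 to 7.79 in WT.

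The mean of 12 neutrophil markers (11 higher) stood at 7.75, 9.70 and 11.90 on Keap1_KO B, C and D, against 7.63, 8.86 and 8.07 on WT A, D and F. Plasma cell markers (5 of 6 higher) were likewise highest on Keap1_KO C and D, at 7.21 to 9.16 in Keap1_KO and 7.25 to 8.10 in WT. Keap1_KO C, where V segments were high, was low for other lists. B cell markers (8 of 9 higher) stood at 7.64, 6.76 and 8.20 on Keap1_KO B, C and D, against 6.98, 8.06 and 6.21 on WT A, D and F. NK cell markers (4 of 6 higher) stood at 8.15, 7.69 and 9.62 on Keap1_KO B, C and D, against 8.16, 9.33 and 6.79 on WT A, D and F. Innate-like T cell markers (3 of 4 higher) were highest on WT D, at 8.57 to 9.62 in Keap1_KO and 7.75 to 9.75 in WT.

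Macrophage and monocyte markers (5 of 10 higher) were highest on Keap1_KO D and WT D, at 6.44 to 6.99 in Keap1_KO and 6.14 to 6.74 in WT. Erythroid markers (2 of 3 higher) were highest on WT F, at 5.98 to 6.18 in Keap1_KO and 5.93 to 6.36 in WT, and gamma delta T cell markers (0 of 2 higher) were lowest on Keap1_KO C, at 5.33 to 5.72 in Keap1_KO and 5.48 to 5.74 in WT. The part of these cells in the V segment values was not tested.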

How the data were processed

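The log2 values deposited for the 6 arrays were used. The submitters' processing notes name RMA, the Transcriptome Analysis Console and the Affymetrix Expression Console, without versions. RMA corrects background, quantile-normalizes and summarises probes. Values reached 19.93, above the 16 that a 16-bit scanner can give on this scale, so a further rescaling is unstated, and fold changes are on the deposited scale. Row identifiers were named through a platform annotation of a different Affymetrix mouse array than the design states, and no genome build was used. Of 65528 clusters, 30354 had 1 symbol, 2118 several and 33056 none here; 824 symbols were updated through Entrez identifiers, none of them a V segment.

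Clusters at or above their array's median on at least 3 arrays were tested with limma 3.58.1 in R 4.3.3 (lmFit, eBayes, two-sided, Benjamini-Hochberg over 17005 clusters, threshold 0.05), which was checked on simulated data. Rows were not merged by symbol. Exact permutation tests used scipy 1.17.1. Segments named are the 6 largest rises and falls among Trav, the 4 among Trbv, the 3 of largest spread per chain, the invariant-receptor segments, and listed receptor genes; others are given to show a family, a copy or a lack of overlap and were chosen after their values were seen. The members and lists were chosen with earlier results of these data known. For arrays, their number limits the precision.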

Additional observations from a re-analysis of the deposited data

How the results depend on the processing

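No segment passed the adjusted threshold in limma in the settings tried, except with array weights (50 segments) and without Keap1_KO B. Leaving out 1 array gave 0 to 22 segments, median differences from 0.71 to 1.63 for Trav and from 0.83 to 1.85 for Trbv. Shifting each array by its V segment median, added after the data were seen, brought the medians to -0.091 for Trav and 0.11 for Trbv by construction. For the other settings (filters, repeated quantile normalization, centred arrays, 1 cluster per symbol, rows with a repeated symbol or identical values left out) both medians moved by less than the spread between arrays, and the similarity of usage (0.33) lay between 0.30 and 0.37. Of 20 named segments, signs turned only for 3, and the cause was not tested. Trbv21 was 0.10 with array weights and -0.63 to 0.25 with 1 array left out (0.16 without Keap1_KO B, 0.25 without WT F). Trbv14 was 0.059 after repeated quantile normalization, 0.11 with centred arrays, 0.050 with array weights and -0.29 to 0.43 with 1 array left out (0.43 without Keap1_KO B, 0.20 without WT A). Trbv2 was -0.55 after the V segment shift. A further 14 values passed the threshold, 9 with array weights and 5 without Keap1_KO B. No paired analysis was possible because the genotypes share 1 replicate letter only, D.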
